A study of Mus musculus with 8 samples.

Results

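Wnt pathway genes encode secreted Wnt ligands and the proteins that release, receive, block and transmit their signal. They were taken by name: every probe whose gene name began with Wnt, Fzd, Dkk, Sfrp, Axin or Dvl and a number, or with Tcf7, and every probe of Lef1, Ctnnb1, Lrp5, Lrp6, Porcn and Wls. This rule used no measured value and gave 81 probes of 51 genes, out of 56605 probes. The probes fell on 19 ligands, 2 ligand secretion genes, 10 Frizzled receptors, 2 co-receptors, 8 secreted inhibitors, 6 cytoplasmic transducers and 4 transcription factors, and 23 genes had several probes.

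In the canonical branch, a Wnt ligand that Porcn has acylated and Wls has carried to the cell surface binds a Frizzled receptor together with Lrp5 or Lrp6. Dishevelled (Dvl) then halts the complex of Axin, Apc and Gsk3 that marks β-catenin (Ctnnb1) for degradation, and β-catenin joins the Tcf and Lef1 factors at target genes such as Axin2. In the brain the pathway is known for patterning, synapse formation and the growth and barrier function of blood vessels.

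The study compared the brain transcriptome of BTBR/R mice (BTBRTF/ArtRbrc), a subline of the BTBR strain used to study low sociability, with that of B6 mice (C57BL/6J). Whole cerebral cortex and striatum of 4 untreated male mice of each strain were measured together, 1 mouse per 1-colour Agilent array. The age was 6 months for BTBR/R replicate 1 and 4 months for all other mice. Each array's position on the slide was coded by 2 numbers. The first was 1 for all B6 arrays and 2 for all BTBR/R arrays, so the position on the slide and the strain cannot be told apart. In such bulk tissue, fewer cells of a type and less RNA per cell cannot be told apart either. All 6 markers of cortical excitatory neurons and all 8 of striatal projection neurons were detected on all 8 arrays. The summed signal of the cortical markers was 21.3 to 25.5 in B6 mice and 22.9 to 26.3 in BTBR/R mice, in multiples of each array's 75th percentile, and that of the striatal markers was 172 to 183 and 163 to 184.

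Levels are scaled signals, in which each array's 75th percentile was subtracted from its processed signals after log2 transformation, and differences are BTBR/R minus B6 on the log2 scale with the standard error (SE, n = 4 per strain). Strains were compared with limma over all 56605 probes with Benjamini-Hochberg adjustment, and calls were probes with an adjusted p below 0.05 that also differed 2-fold or more. A probe counted as detected where the scanner software marked it as well above background. Detection reached lower on the B6 arrays, where the dimmest detected probe had a scaled signal of -5.28 to -4.98, than on the BTBR/R arrays, where it had -3.97 to -3.55. Of the 81 probes, 51 (36 genes) were detected on all 8 arrays, 10 on all B6 arrays but on some or none of the BTBR/R arrays, 11 on other sets of arrays, and 9 on none.

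The reference sequences of 4 genes are shown because these are genes on which the results turn: Wls, which was lower in BTBR/R mice, and Fzd4, Tcf7l1 and Wnt5b, which were higher. Each is the 250 bases before an annotated transcript start (RefSeq, GRCm38.p6), written along the gene's strand. The capitals mark a match to the Tcf and Lef1 core motif, taken as CTTTG followed by 2 bases that are each an A or a T and searched on both strands.
Wls (chr3:159839400-159839649, plus strand): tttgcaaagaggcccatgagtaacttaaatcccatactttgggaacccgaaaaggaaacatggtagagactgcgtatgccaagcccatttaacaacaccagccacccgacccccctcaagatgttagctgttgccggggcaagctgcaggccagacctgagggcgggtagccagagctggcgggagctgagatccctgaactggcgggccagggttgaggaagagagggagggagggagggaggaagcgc
Fzd4 (chr7:89404116-89404365, plus strand): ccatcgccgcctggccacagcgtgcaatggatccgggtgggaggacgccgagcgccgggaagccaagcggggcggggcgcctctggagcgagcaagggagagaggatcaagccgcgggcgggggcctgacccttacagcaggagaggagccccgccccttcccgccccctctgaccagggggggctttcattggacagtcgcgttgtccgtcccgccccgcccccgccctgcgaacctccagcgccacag
Tcf7l1 (chr6:72789046-72789295, minus strand): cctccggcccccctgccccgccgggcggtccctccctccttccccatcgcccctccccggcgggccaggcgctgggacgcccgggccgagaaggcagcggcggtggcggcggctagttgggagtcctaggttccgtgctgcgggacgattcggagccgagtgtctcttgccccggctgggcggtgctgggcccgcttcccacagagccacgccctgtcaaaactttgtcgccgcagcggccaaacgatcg
Wnt5b (chr6:119449387-119449636, minus strand): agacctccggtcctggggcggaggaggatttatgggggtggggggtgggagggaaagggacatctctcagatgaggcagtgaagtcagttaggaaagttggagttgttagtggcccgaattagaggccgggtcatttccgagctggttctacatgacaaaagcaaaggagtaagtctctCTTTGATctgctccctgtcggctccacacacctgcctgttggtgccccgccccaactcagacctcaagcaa
The reference table held 44 such windows for 35 of the 51 genes, and 6 of the 44 windows (13.6%) contained a match, beside 14.8% of all 32851 windows. Of the 11 windows of the genes that differed between the strains, described next, 1 contained a match, and it is the Wnt5b window printed above. The other 2 of the 3 Wnt5b windows held none, and the printed one was chosen for its match. A match is a stretch of letters and does not show that a factor binds there.

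Most differences among the Wnt pathway probes detected on all 8 arrays were smaller than 2-fold, and most of those that passed the test were increases in BTBR/R mice. Of the 51 probes detected on all 8 arrays, 17 probes of 12 genes were upregulated at an adjusted p below 0.05 and 2 probes of 1 gene, Wls, were downregulated. These shares were 33.3% higher and 3.92% lower, beside 13.0% higher and 13.9% lower among all 28547 probes detected on all 8 arrays (26.9% in both directions together). The median difference of the 51 probes was 0.09, against 0.00 for the 28547 probes, and the median size of the difference was 0.13 against 0.12. All 4 BTBR/R mice lay above all 4 B6 mice for 18 of the 51 probes (35.3%) and below them for 2 (3.92%), beside 16.3% and 16.4% of all probes detected on all 8 arrays. Ligands and Frizzled receptors held 13 of the 17 upregulated probes, and no gene had probes that passed in opposite directions.

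The count of 19 probes was lower in every fit that left out 1 mouse. Those fits had fewer arrays, and the share of all probes that passed in them is not given. The count was also lower with mouse number as a replicate block, described near the end. It was 11 without B6 replicate 2, 12 without B6 replicate 3, and 14 or 15 without each of the other mice. For 7 probes, 1 each of Wnt5b, Wnt7a, Wnt7b, Fzd1, Fzd4, Tcf7l1 and Wls, the adjusted p stayed below 0.05 with the same direction under all 21 alternative settings.

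**Figure D1:**
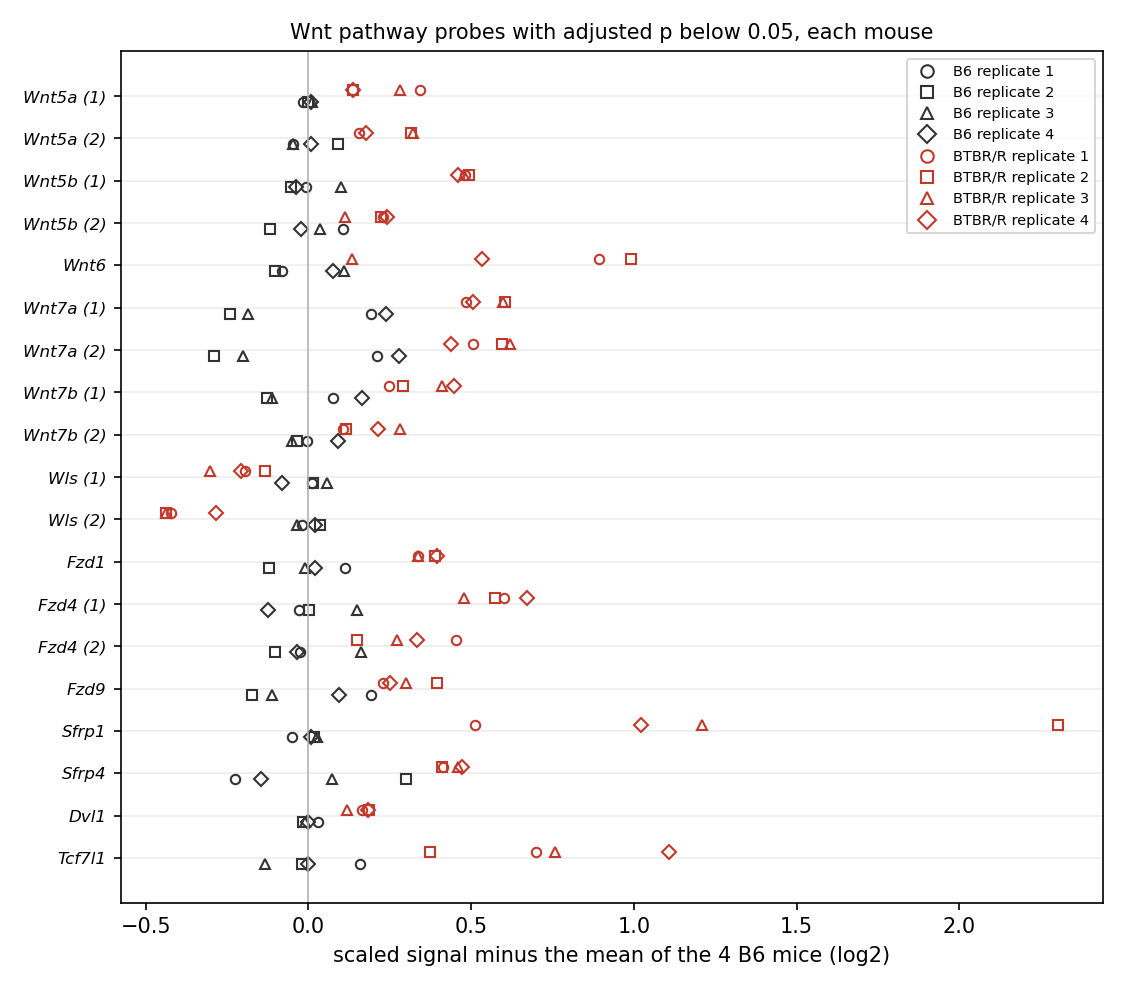
Each point is 1 mouse and gives its scaled signal minus the mean of the 4 B6 mice (log2, x axis), for the 19 Wnt pathway probes detected on all 8 arrays with an adjusted p below 0.05. Numbers in brackets order probes of a gene along the transcript, and the 4 BTBR/R mice lie to the right of the B6 mean for every probe except the 2 of Wls.

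Among the ligands, 9 of 15 probes detected on all 8 arrays passed the threshold, all higher in BTBR/R mice, and they belonged to Wnt5a, Wnt5b, Wnt6, Wnt7a and Wnt7b. Wnt7a, a ligand known in synapse formation and brain blood vessels, had scaled signals of 0.34, -0.10, -0.04 and 0.38 in B6 replicates 1 to 4 and 0.63, 0.75, 0.74 and 0.65 in BTBR/R replicates 1 to 4 (probe at chr6:91314080-91314139, mm9). B6 replicates 2 and 3 were the lowest mice and no BTBR/R mouse overlapped a B6 mouse. The difference was 0.55 (SE 0.12, adjusted p = 0.0097, 1.46-fold), and the other detected probe, further along the Wnt7a transcript, gave 0.54 (SE 0.14, adjusted p = 0.019).

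Wnt7b, the close relative that acts on brain vessels with Wnt7a, had -0.90, -1.10, -1.09 and -0.81 in B6 mice and -0.73, -0.69, -0.56 and -0.53 in BTBR/R mice (chr15:85366495-85366554, mm9). The groups did not overlap, and again B6 replicates 2 and 3 were lowest. The difference was 0.35 (SE 0.09, adjusted p = 0.015), against 0.18 (SE 0.06, adjusted p = 0.049) at the other Wnt7b probe, which passed in 2 of the 8 fits without 1 mouse.

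Wnt5b, a ligand of the β-catenin-independent branch, gave the tightest separation. It had -2.94, -2.98, -2.83 and -2.97 in B6 mice and -2.45, -2.43, -2.45 and -2.47 in BTBR/R mice (chr6:119383012-119383071, mm9). Spread within each strain was far smaller than the gap, and the difference was 0.48 (SE 0.05, adjusted p = 0.00014, 1.39-fold). With another background correction, normexp, the limma difference of this dim probe was smaller, at 0.28 (adjusted p = 0.0018). A second Wnt5b probe differed by 0.20 (SE 0.06, adjusted p = 0.039), and passed in 2 of the 8 fits that each left out 1 mouse. Wnt5a, the related ligand, was upregulated at both of its detected probes, by 0.24 (SE 0.06, adjusted p = 0.018) and 0.22 (SE 0.06, adjusted p = 0.022), with no overlap between strains at either. The latter probe passed in 5 of the 8 fits without 1 mouse. It did not pass in limma with normexp (0.13, adjusted p = 0.092) or with mouse number as a replicate block (adjusted p = 0.071).

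Wnt6 had -2.22, -2.24, -2.02 and -2.06 in B6 mice and -1.24, -1.14, -1.999 and -1.60 in BTBR/R mice. BTBR/R replicate 3 lay just above the highest B6 mouse while the other BTBR/R mice were clearly higher. The difference was 0.64 (SE 0.19, adjusted p = 0.031), and it passed in only 1 of the 8 fits that each left out 1 mouse. The other 6 ligands detected on all 8 arrays, Wnt1, Wnt2, Wnt3, Wnt4, Wnt9a and Wnt10a, had differences between -0.33 and 0.15 that did not pass.

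Wls and Porcn, the ligand secretion genes, were measured by 3 probes, 2 of them lower in BTBR/R mice. Wls, the carrier that takes Wnt proteins to the cell surface, had 0.38, 0.44, 0.37 and 0.42 in B6 mice and -0.02, -0.03, -0.03 and 0.12 in BTBR/R mice (chr3:159597867-159597926, mm9). Every BTBR/R mouse was below every B6 mouse, and the difference was -0.40 (SE 0.05, adjusted p = 0.00064, 1.32-fold lower).

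The second Wls probe lies near the transcript's 5′ end, at position 530, and is shown because the 2 probes together cover both ends of the transcript.
Wls probe (chr3:159536050-159536109, mm9, plus strand): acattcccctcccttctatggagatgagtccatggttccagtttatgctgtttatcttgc
It had 0.70, 0.70, 0.74 and 0.61 in B6 mice and 0.49, 0.55, 0.38 and 0.48 in BTBR/R mice, again with no overlap, and differed by -0.21 (SE 0.06, adjusted p = 0.020). Scaling by spike-in RNA moved the median of all probes up by 0.11, and under it this second probe was at -0.10 (adjusted p = 0.29) while the first stayed lower (-0.28, adjusted p = 0.032). Porcn, which attaches the lipid to Wnt proteins, was at 0.11 (95% confidence interval 0.01 to 0.22, adjusted p = 0.090). Its 4 BTBR/R mice, at 2.50 to 2.55, lay above the 4 B6 mice, at 2.33 to 2.46.

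**Figure D2:**
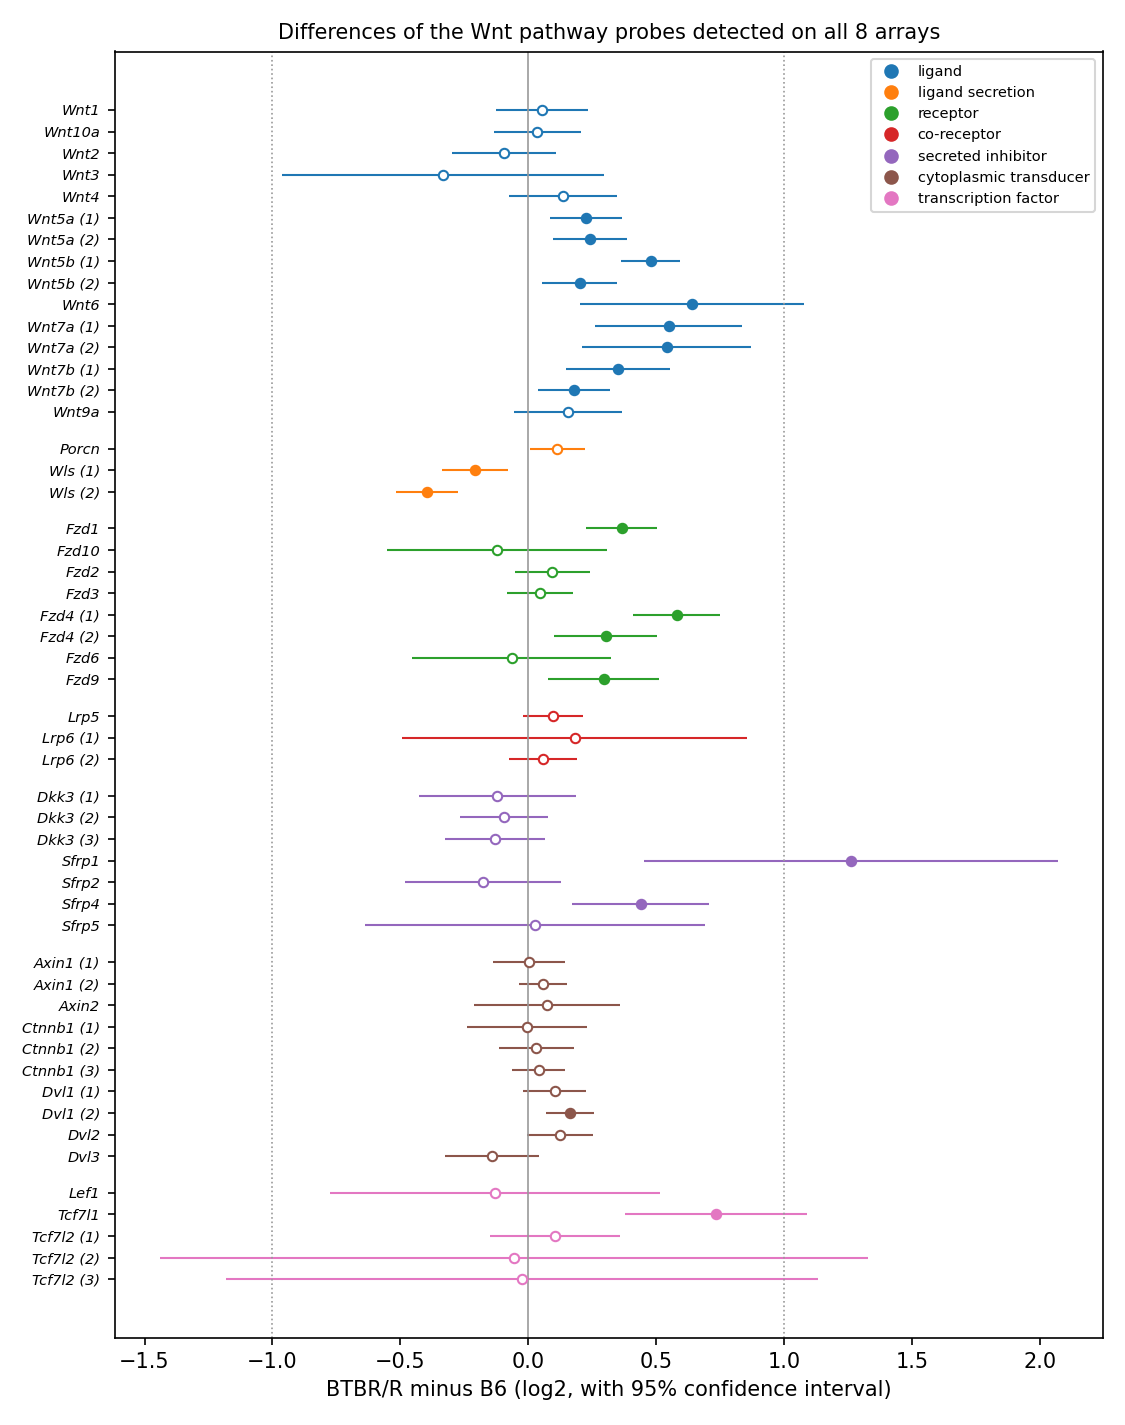
Points give BTBR/R minus B6 (log2) with the 95% confidence interval for the 51 Wnt pathway probes detected on all 8 arrays, coloured by role, filled where the adjusted p was below 0.05, with dotted lines at a 2-fold change. Numbers in brackets order probes of a gene along the transcript. Filled points lie right of 0 for ligands, receptors, inhibitors, Dvl1 and Tcf7l1, left of 0 for Wls, and only Sfrp1 passes a dotted line.

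Of 8 Frizzled receptor probes detected on all 8 arrays, 4 were upregulated in BTBR/R mice and none was downregulated. Fzd4, the receptor known from retinal and brain vessels, had -0.45, -0.42, -0.27 and -0.55 in B6 mice and 0.18, 0.15, 0.06 and 0.25 in BTBR/R mice (chr7:96557478-96557537, mm9). The groups were well apart, and the difference was 0.58 (SE 0.07, adjusted p = 0.00047). At the second Fzd4 probe, near the end of the transcript, BTBR/R replicate 2 (-1.05) lay below B6 replicate 3 (-1.04), and the difference was 0.30 (SE 0.09, adjusted p = 0.027), which passed in 2 of the 8 fits without 1 mouse.

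Fzd1 had -0.85, -1.08, -0.97 and -0.94 in B6 mice and -0.63, -0.57, -0.63 and -0.57 in BTBR/R mice. All BTBR/R mice were higher, by 0.36 on average (SE 0.06, adjusted p = 0.0020). Fzd9 was higher by 0.29 (SE 0.09, adjusted p = 0.040), a difference that passed in 2 of the 8 fits that each left out 1 mouse. Fzd2, Fzd3, Fzd6 and Fzd10 were between -0.12 and 0.09 and did not pass.

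Since Fzd4, Wnt7a and Wnt7b act in vessels, endothelial markers are given beside them. All 8 markers were detected on all arrays, 2 were higher and 4 lower in BTBR/R mice, and their summed signal was 38.5 to 43.2 in B6 mice and 35.0 to 38.0 in BTBR/R mice. The mean scaled signal of the 8 markers overlapped, at 1.01 to 1.08 in B6 mice and 0.85 to 1.03 in BTBR/R mice. By the brightest probe of each gene, the largest differences were Slco1c1, a thyroid hormone carrier of brain vessels, at 0.79, and Tie1, a receptor of endothelial cells, at -0.59. A second Slco1c1 probe was at -0.56 (adjusted p = 0.00024), so the probes of this gene disagreed. Astrocyte markers, of which 6 of 6 were detected and 3 were lower, summed to 293 to 332 in B6 mice and 235 to 270 in BTBR/R mice. This sum weighs the brightest marker most, which was Aldoc (mean 8.12 in B6 and 7.76 in BTBR/R mice). The mean scaled signal of the 6 markers overlapped, at 3.13 to 3.25 in B6 mice and 2.91 to 3.15 in BTBR/R mice. The part of either cell type in the Wnt pathway differences was not tested.

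The co-receptors did not pass. Lrp5 was at 0.10 (95% confidence interval -0.02 to 0.21) and the brighter Lrp6 probe at 0.06 (-0.07 to 0.19). At a second Lrp6 probe BTBR/R replicate 3 had -1.005 while the other 7 mice lay between -2.33 and -2.03.

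Secreted inhibitors held the largest difference among the detected members. Sfrp1, a soluble protein that binds Wnt ligands outside the cell, had -3.08, -3.02, -3.01 and -3.02 in B6 mice and -2.52, -0.73, -1.82 and -2.01 in BTBR/R mice (chr8:24559438-24559497, mm9). The B6 mice were nearly equal, all BTBR/R mice were higher, and BTBR/R replicate 2 was highest. The difference was 1.26 (SE 0.34, adjusted p = 0.023, 2.40-fold). This single call among 51 probes (1 higher, 0 lower) compares with 2.20% of all probes detected on all 8 arrays, 1.04% higher and 1.16% lower. It was lost without BTBR/R replicate 2, where the difference was 0.91 (adjusted p = 0.0055), and without any 1 of the B6 mice, where the adjusted p was 0.051 to 0.054.

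Sfrp4, a second inhibitor of the same family, had -2.39, -1.86, -2.09 and -2.31 in B6 mice and -1.75, -1.75, -1.70 and -1.69 in BTBR/R mice. BTBR/R mice were all higher and closer together than B6 mice, with a difference of 0.44 (SE 0.11, adjusted p = 0.019). Sfrp4 did not pass with mouse number as a replicate block, with a floor for dim probes, or without B6 replicate 1 and BTBR/R replicate 2 together. Sfrp2 (-0.18), Sfrp5 (0.03) and the 3 probes of Dkk3 (-0.13 to -0.09), a divergent Dickkopf protein, did not pass.

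Among the cytoplasmic transducers 1 of 10 detected probes passed, Dvl1 at 0.16 (SE 0.04, adjusted p = 0.015). This Dvl1 probe passed in all 8 fits without 1 mouse. It did not pass in limma with mouse number as a replicate block (adjusted p = 0.077), with median scaling, or without B6 replicate 1 and BTBR/R replicate 2 together. Its 4 BTBR/R mice, at 3.07 to 3.14, lay above the B6 mice, at 2.94 to 2.98. At the other Dvl1 probe the strains overlapped, and the difference of 0.10 (adjusted p = 0.16) did not pass. The effector β-catenin was close to equal at all 3 of its probes, with Ctnnb1 differences of -0.01, 0.03 and 0.04. For the brightest of them the 95% confidence interval was -0.06 to 0.14. Axin2, a feedback inhibitor and common readout of β-catenin signalling, had -3.17, -3.32, -3.14 and -2.89 in B6 mice and -2.87, -2.95, -3.16 and -3.26 in BTBR/R mice. The strains overlapped, and the interval of the difference of 0.07 ran from -0.21 to 0.36. Axin1, Dvl2 and Dvl3 were at 0.06, 0.12 and -0.14 by their brightest probes and did not pass.

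Of the transcription factors, Tcf7l1, which represses target genes when the pathway is off, was upregulated. It had -3.45, -3.63, -3.74 and -3.61 in B6 mice and -2.91, -3.24, -2.85 and -2.50 in BTBR/R mice (chr6:72576377-72576436, mm9). All BTBR/R mice were higher, and the difference was 0.73 (SE 0.15, adjusted p = 0.0069, 1.66-fold).

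Tcf7l2 and Lef1 varied between mice rather than between strains. Tcf7l2 had 1.23, -0.64, -0.47 and -0.75 in B6 mice and -0.44, 0.64, -0.41 and -0.53 in BTBR/R mice at the probe with the highest mean signal. A second Tcf7l2 probe had -0.73, -2.47, -2.31 and -2.82 in B6 mice and -2.31, -0.81, -2.60 and -2.83 in BTBR/R mice. Lef1 had 1.30, 0.21, 0.44 and 0.17 in B6 mice and 0.18, 0.81, 0.40 and 0.21 in BTBR/R mice. At all 3 probes B6 replicate 1 and BTBR/R replicate 2 were the highest mice of their strains. The strain differences were -0.03, -0.06 and -0.13, and their 95% confidence intervals reached from -1.44 to 1.33 at the widest. At a further Tcf7l2 probe, nearer the 5′ end, the same 2 mice were again highest, at -2.20 and -2.18, but by a smaller margin, with the other mice between -2.66 and -2.27.

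The same 2 mice were highest for thalamus markers. Of 8 such genes measured, 6 were detected on all arrays, and Gbx2 and Shox2 were not. Prkcd, a protein kinase C of thalamic neurons, had 1.51, -1.17, -1.23 and -1.14 in B6 mice and -0.45, 0.66, -1.27 and -1.56 in BTBR/R mice. The summed signal of the 6 markers was 22.2 in B6 replicate 1 and 14.6 in BTBR/R replicate 2, against 7.82 to 8.97 in the other 6 mice. None of the 6 passed the adjusted p between strains, and the 95% confidence interval of the Prkcd difference ran from -1.93 to 1.63. Without these 2 mice, an alternative added after the values were seen, 13 member probes passed (11 higher, 2 lower), and Sfrp1 was no longer called (0.90, adjusted p = 0.018). Marker lists of other tissue differed in these 2 mice too. The summed signal of the 7 detected choroid plexus markers (of 10) was 41.9 in B6 replicate 1 and 26.1 in BTBR/R replicate 2, against 2.801 to 32.6 in the other B6 mice and 6.33 to 22.2 in the other BTBR/R mice. The cortical and striatal sums given at the start were lowest of their strains in the same mice, at 21.3 and 172 in B6 replicate 1 and at 22.9 and 163 in BTBR/R replicate 2. The cortical sum of BTBR/R replicate 2 (22.88) was close to that of replicate 1 (22.96). By the mean scaled signal of the cortical markers, replicate 1 was lowest (1.10, against 1.14 in replicate 2). Only 2 of 7 hippocampus markers were detected on all arrays, and they disagreed: Prox1 was highest of its strain in both mice (0.16 and -0.23), while Lct was lowest of all mice in BTBR/R replicate 2 (-3.06). The part of thalamic or other tissue in the Tcf7l2 and Lef1 signals was not tested. These 2 mice were the highest of their strains for 12 of the 51 member probes detected on all 8 arrays. Wnt3 was at -1.32 and -2.04 in them, Fzd10 at -1.64 and -1.99, and Sfrp5 at -0.79 and -1.08, where the other B6 mice had at most -2.03, -2.25 and -1.60 and the other BTBR/R mice at most -2.45, -2.22 and -1.32.

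**Figure D3:**
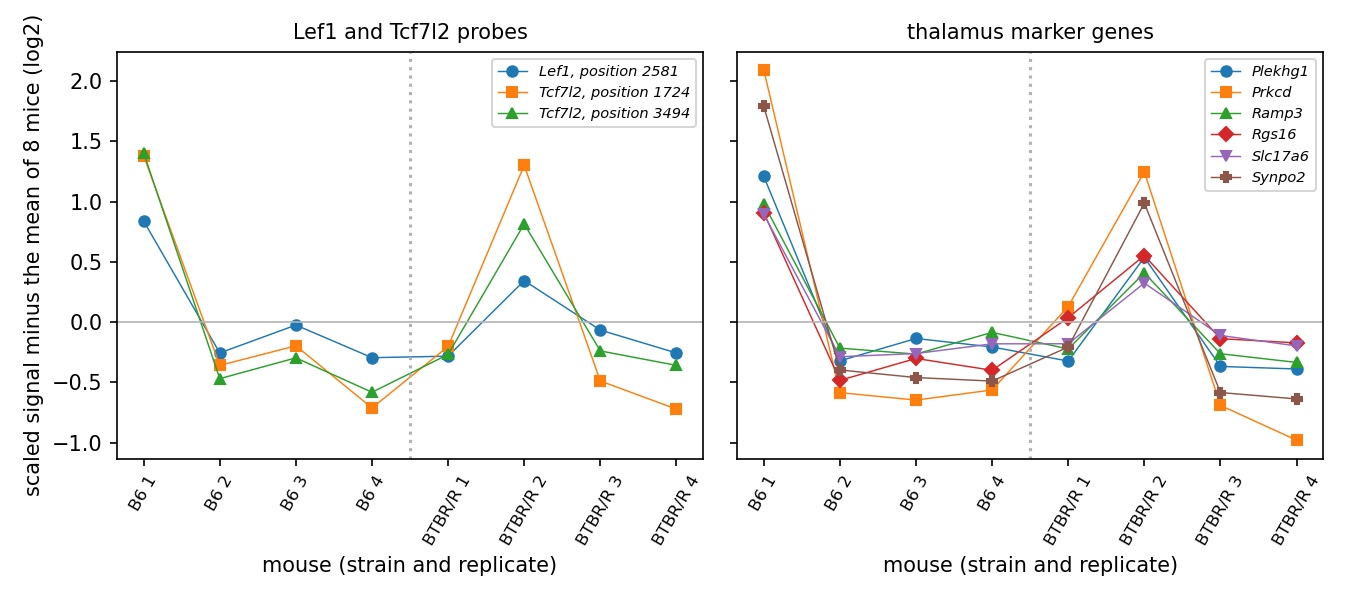
Scaled signal of each mouse minus the mean of all 8 mice (log2, y axis) for a Lef1 probe and 2 Tcf7l2 probes (left, named by position in the transcript) and for 6 thalamus marker genes (right), with mice on the x axis. B6 replicate 1 and BTBR/R replicate 2 stand above the other mice of their strain in both panels.

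Over all 81 probes, 6 were called, 5 higher (6.17%) and 1 lower (1.23%), beside 22.4% of all 56605 probes (20.2% higher, 2.27% lower). Apart from Sfrp1, the calls lay where 1 or both strains were below detection. The called probes of Wnt3a, Dkk4 and Lef1 were detected on no array and that of Wnt8a on 1 BTBR/R array, so their fitted differences of 1.07 to 2.16 are no measured change. Wnt8b, a ligand of the developing hippocampus, was detected on all 4 B6 arrays, at -4.41, -3.94, -3.69 and -4.45, and on no BTBR/R array. Its fitted difference was -1.48 (adjusted p = 0.0081), and since its B6 mean of -4.12 was below the dimmest signal detected on every BTBR/R array, no fold is given. Wnt11 was detected in the same way, with a fitted difference of -0.69 (adjusted p = 0.020). With normexp background correction, 0 of the 81 probes and 0.995% of all probes were called. Of the 19 probes described above, 16 stayed past the adjusted p of limma under it (14 higher, 2 lower).

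**Figure D4:**
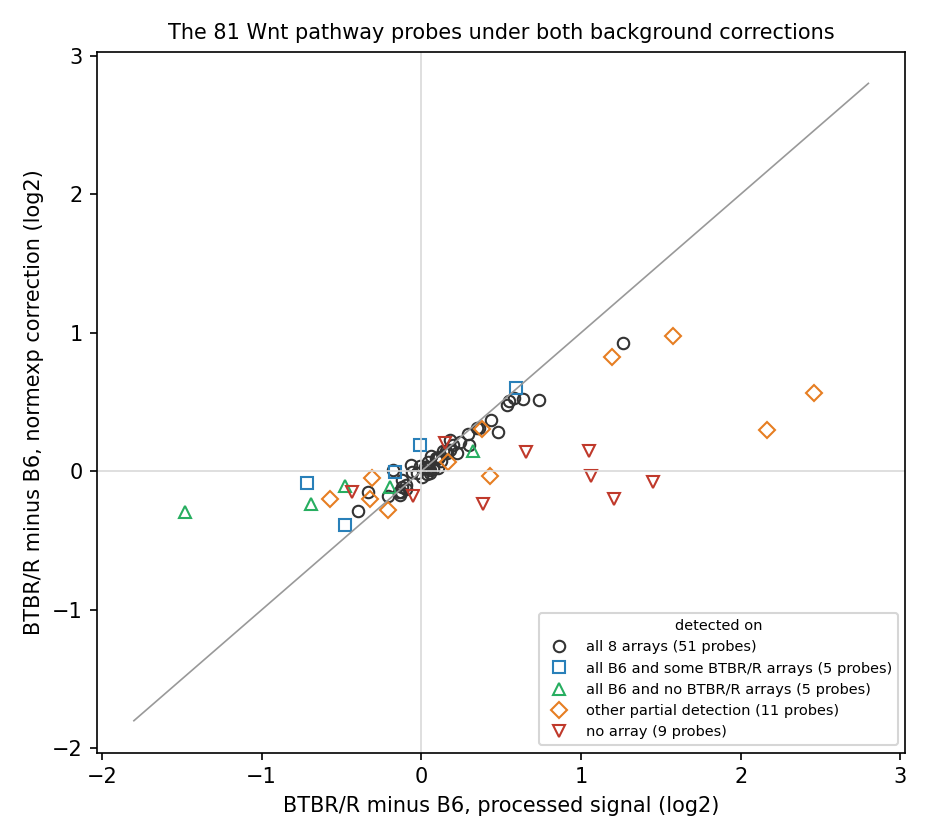
Each point is 1 of the 81 Wnt pathway probes, with BTBR/R minus B6 (log2) from the processed signal on the x axis and from normexp background correction on the y axis, and the diagonal marks equal values. Of the 51 probes detected on all 8 arrays, 49 lie within 0.2 of the diagonal, with Sfrp1 and Tcf7l1 further below it. This band is wider than the median size of their difference, 0.13, and a Wnt5b probe inside it falls from 0.48 to 0.28. Probes detected on no array reach up to 1.45 on the x axis and lie near 0 on the y axis.

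Genes of the pathway outside the name rule were taken from a list of 82 measured genes (195 probes), of which 145 probes of 72 genes were detected on all 8 arrays. Among these, 21 probes were higher (14.5%) and 12 lower (8.28%) at an adjusted p below 0.05, beside 13.0% and 13.9% of all probes detected on all 8 arrays. The 3 called probes (2.07%, close to the 2.20% of all such probes) belonged to Ccnd1, Celsr3 and Daam1.

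Ccnd1, which encodes cyclin D1 and is a known β-catenin target in some tissues, had 1.60, 1.89, 1.58 and 1.64 in B6 mice and 0.32, 0.72, 0.61 and 0.37 in BTBR/R mice. The strains were far apart, and the difference was -1.17 (SE 0.11, adjusted p = 9.9e-05, 2.25-fold lower). Celsr3, a planar polarity cadherin of axon guidance, differed by 1.63 (SE 0.25, adjusted p = 0.0016) at a dim probe and by 0.16 (SE 0.05, adjusted p = 0.028) at a bright one. Daam1, a formin downstream of Dishevelled, differed by 1.32 (SE 0.18, adjusted p = 0.00069) at 1 probe and by 0.00 at another that was detected on all arrays, so the probes of this gene disagreed.

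Nkd1, a pathway inhibitor which binds Dishevelled, had 0.56, 0.38, 0.49 and 0.43 in B6 mice and -0.26, -0.01, -0.22 and -0.28 in BTBR/R mice. All BTBR/R mice were lower, by 0.66 on average (SE 0.08, adjusted p = 0.00032). Nkd2, its relative, differed by -0.30 (SE 0.04, adjusted p = 0.0011). Znrf3, a ubiquitin ligase that removes Frizzled receptors, differed by -0.57 (SE 0.09, adjusted p = 0.0015) and -0.42 (SE 0.13, adjusted p = 0.035) at 2 probes and by -0.05 at the other. The related ligase Rnf43 (-0.08) and the Wnt deacylase Notum (-0.01) did not pass.

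**Figure D5:**
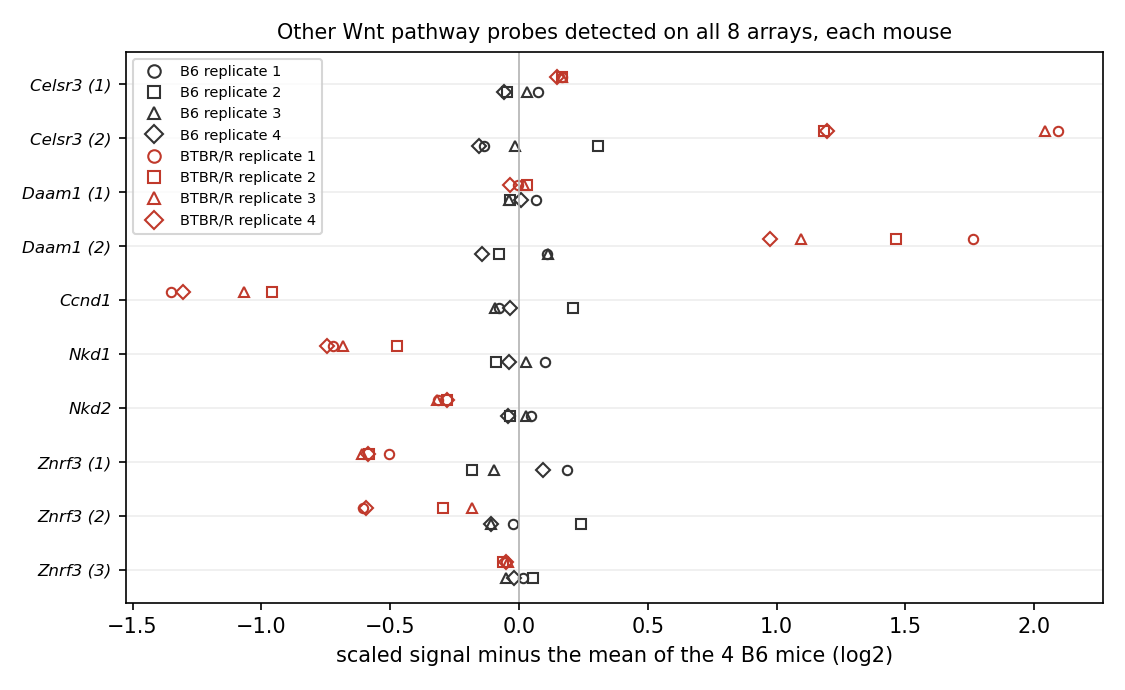
Each point is 1 mouse and gives its scaled signal minus the mean of the 4 B6 mice (log2, x axis) for the probes of Celsr3, Daam1, Ccnd1, Nkd1, Nkd2 and Znrf3 detected on all 8 arrays, with numbers in brackets for probes of the same gene. All 4 BTBR/R mice lie left of the B6 mice for Ccnd1, Nkd1, Nkd2 and 2 of 3 Znrf3 probes.

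Within the degradation complex, Gsk3a differed by -0.38 (SE 0.05, adjusted p = 0.00073), while the 4 detected probes of its partner kinase Gsk3b lay between -0.07 and 0.31 and did not pass. Csnk1e, a casein kinase that acts on Dishevelled, was higher by 0.40 (SE 0.07, adjusted p = 0.0025). Chd8, a chromatin remodeller that binds β-catenin, was higher at 2 of its 4 detected probes, by 0.42 and 0.46 (adjusted p = 0.0024 and 0.0013). Ryk, a Wnt receptor outside the Frizzled family, was higher by 0.20 and 0.23 at 2 probes. Celsr1, which lies near Wnt7b on chromosome 15, was higher by 0.39 (SE 0.05, adjusted p = 0.00059).

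Some genes of the list had probes that passed in opposite directions, namely Tle3, Mapk8 and Prickle1. Tle3, a corepressor of the Tcf factors, was at -0.86 (adjusted p = 0.00082) and 0.32 (adjusted p = 0.0019). Mapk8, the kinase JNK1, was at -0.71 (adjusted p = 2.8e-05) at 1 probe and at 0.38 and 0.41 at 2 others. Prickle1, a planar polarity protein, was at -0.29 at 1 probe and at 0.22 and 0.28 at 2 others. For these 3 genes no direction of the whole gene is given.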

How the data were processed

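RNA from cortex and striatum of 4 BTBR/R and 4 B6 mice was hybridized to 8 1-colour arrays, grouped by the strain in the labels. The authors deposited spot intensities from Agilent Feature Extraction 10.7.3.1 (submitters' processing notes), background subtracted and detrended, and log2 values from GeneSpring. These differ from the log2 of the processed signal by 1 constant on each array, to within 0.01 for at least 99.97% of the probes. Other deposited columns held flags for controls, outliers and detection.

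Here 59305 non-control spots per array were averaged to 56605 probes after outlier spots (36 to 52 per array) were left out. The log2 processed signal minus the array's 75th percentile (556 to 572 in B6, 535 to 589 in BTBR/R mice before the log) was fitted by strain in limma 3.58.1 under R 4.3.3 (lmFit, then eBayes), and p-values were adjusted over all probes by Benjamini-Hochberg. Summaries and plots used Python 3.11.15, pandas 2.3.3 and matplotlib 3.10.9. Before use, the limma script was tested on simulated data. The number of arrays limits the precision. No block for slide or scan was fitted, since there was 1 of each, and no spot was saturated.

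Between 53.5% and 66.8% of the probes were detected per array. Gene names and positions (mm9) come from the array annotation. Of 72 member probes with a RefSeq accession, 70 matched the reference table, all with the same symbol. The windows before transcript starts came from a reference table (GRCm38.p6), and no probe was aligned to a genome.

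Named genes were the members called and detected on every array of a strain or called with normexp, the 6 largest changes in each direction among members detected on all 8 arrays, the probe with the highest mean signal of each core gene and detected family member, and called probes of the other pathway list. Further members and pathway genes are named in the text beyond this rule, chosen after their values were seen. The members and lists were chosen with earlier results of these data known.

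Alternatives tried were background correction by normexp (offset 50), quantile, median, detected-probe and spike-in scaling (7 spike-in probes), the authors' log2 values, filters or a floor for dim probes, limma with trend and robust options, the methods' t-test, a replicate block and leaving out each mouse. Leaving out B6 replicate 1 and BTBR/R replicate 2 together was added after the values were seen.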

Additional observations from a re-analysis of the deposited data

Results flagged for a closer look

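Within each strain, the highest or lowest mouse was set against the other 3 for every member probe detected on at least 1 array of that strain. Of 131 such groups, 11 had a mouse far from the others (5 in B6, 6 in BTBR/R), and chance gives about 1 in 20 groups.

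B6 replicate 1 stood apart for Tcf7l2 (1.23, others -0.75 to -0.47), Fzd10 (-1.64, others -2.33 to -2.25) and Dkk3 (4.498, others 4.76 to 4.80). B6 replicate 3 stood apart for Fzd7 (-1.08, others -3.55 to -3.44) and for a Ctnnb1 probe (2.50, others 2.59 to 2.61). The Fzd7 value was the only one of the 8 mice above -3.2.

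BTBR/R replicate 2 stood apart for Tcf7l2 (0.64, others -0.53 to -0.41) and for Dkk1, an inhibitor of Lrp5 and Lrp6, at -1.15 where the other BTBR/R mice, not detected, had -6.21 to -5.86. BTBR/R replicate 3 stood apart for Lrp6 (-1.005, others -2.33 to -2.21) and Wnt5b (-0.97, others -0.86 to -0.85). BTBR/R replicate 1, the 6-month-old mouse, was the only 1 with detected Wnt8a (-3.19, others -5.92 to -5.73). BTBR/R replicate 4 had the highest Wls of its strain (0.12, others -0.03 to -0.02).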

How the results depend on the processing

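The count of 6 called member probes fell to 0 with normexp or with a floor at the highest detection limit, to 1 or 2 when only probes detected on all 8 arrays or on every array of a strain were fitted, and to 3 with quantile normalization (1 higher, 2 lower, against 5 higher and 1 lower). Leaving out 1 mouse gave 3 (B6 replicate 4) to 8. Of members detected on all 8 arrays, 1 was called. This became 0 with normexp, with the floor, and without B6 replicate 1 and BTBR/R replicate 2 together, and was 0 to 1 when 1 mouse was left out. The 19 detected members past the adjusted p became 11 with the floor and 21 with spike-in scaling (20 higher, 1 lower), and 11 to 15 without 1 mouse. The 3 called probes of the other pathway list became 2 with normexp and 3 to 4 without 1 mouse. The causes of these shifts were not tested.

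Mouse number was also the second number of the array's position on the slide. With mouse number as a replicate block, 9 of the 19 detected members stayed past the adjusted p (8 higher, 1 lower), and the other counts did not move by over 1.5 times. The deviations of same-numbered mice from their strain means correlated at 0.00, -0.07, -0.04 and 0.16, and not every mouse correlated best with its own number.

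Of 901 values of the 43 probes named by the rule, 24 (9 probes, with main differences of 0.18 or less in size) had another sign, and in 0 of these did either value pass the adjusted p. The 11 that lost a call were those of Sfrp1, of Wnt8b with normexp (-0.29, adjusted p = 0.058) and with the floor, and of Celsr3 with normexp (0.98, adjusted p = 0.0020).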

Other observations

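Other dim members were high in 1 or 2 BTBR/R arrays. A Fzd5 probe had -1.37 and -1.84 in BTBR/R replicates 3 and 4, where the other 6 mice had -6.15 to -4.20, and an Lrp5 probe had -1.86 and -1.17 in the same 2 mice, where the others had -4.88 to -3.70. Neither passed the threshold between strains (adjusted p = 0.46 and 0.14), which does not show that the strains were equal. The Lrp5 difference was 1.58, with a 95% confidence interval of -0.21 to 3.37. A Tcf7l2 probe had -0.43 in BTBR/R replicate 4 and -4.91 to -2.29 in the other mice.

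In the other pathway list, a probe of Fbxw11, a ubiquitin ligase subunit that recognises β-catenin, had a signal in BTBR/R mice that was at least 6.91-fold lower (adjusted p = 2.8e-05), with detection on 3 of 4 BTBR/R arrays, while 3 other Fbxw11 probes detected on all arrays differed by -0.38 to -0.11. Kremen2, a Dickkopf receptor detected on 1 BTBR/R array, was at least 1.92-fold lower (adjusted p = 4.0e-05). These genes were chosen after their values were seen.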
